A study of Gallus gallus with 2 samples.

Results

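The genes described here are 7 genes of steroid hormone synthesis as it runs in Leydig cells: LHCGR, NR5A1, STAR, CYP11A1, HSD3B2, CYP17A1 and CYP19A1. They were taken by gene name from the 26656 genes and gene models that the deposited RNA-seq tables list, and all 7 names were found. The data are 2 libraries of chicken cells labelled as spermatogenic stem cells (SSCs), which the submitters isolated with collagenase and trypsin from embryonic testes after 18.5 days of incubation and kept in culture. The shLSD1 cells carried a transfected vector meant to interfere with the expression of LSD1, a histone demethylase. The Blank group is taken as untreated, and both groups share the same cell source and culture. The labels of these samples name no empty vector, so between these libraries the effects of transfection and of interference cannot be told apart. There was 1 library for each group, so a difference between them has no replicate check. Every interval given here describes these libraries, within 1 or between them, not the treatments, and covers counting error only. The number of animals behind each library is not given in the sources used here.

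Steroid synthesis in the testis starts when luteinizing hormone binds its receptor LHCGR on Leydig cells and raises cAMP inside them. Cholesterol is then carried into the mitochondria by STAR and converted to pregnenolone by CYP11A1, and the 3-beta-hydroxysteroid dehydrogenases and CYP17A1 turn pregnenolone into androgens. CYP19A1, the aromatase, turns androgens into oestrogens and in birds belongs mainly to the embryonic ovary, and the nuclear receptor NR5A1 (SF-1) activates the promoters of many of these genes. The adrenal cortex uses much of the same machinery, so the genes mark steroid-producing cells and not Leydig cells alone.

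By the reads counted on the named genes, CYP17A1 was by far the most abundant of the 7 in these cells. STAR, CYP11A1 and LHCGR were present at low levels, and HSD3B2, NR5A1 and CYP19A1 were at or near 0. CYP17A1 was also the only one that differed between the libraries beyond counting error, and it was lower in shLSD1, with a log2 ratio of -0.45. By the same measure, 15.4% of the 12081 genes and gene models with enough reads were lower in shLSD1, 12.9% were higher and 28.3% were either. Counts and shares over all genes, here and below, include the assembled models. Which direction was the more frequent depended on the scaling, since with upper-quartile scaling 1816 genes were higher and 1608 lower, against 1561 higher and 1862 lower by library totals. HSD3B2 and NR5A1 each lie under a model that the authors assembled on the same strand, and those models held reads. The low counts of these 2 genes therefore cannot be read as their expression, and their place in the order of levels is not known.

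In all, 8245826 reads were counted on genes in the shLSD1 library and 8731455 in the Blank library. LSD1 itself (KDM1A) is listed at 0 reads in shLSD1 and 0 in Blank, as is the assembled model over it, so the interference was not checked in these counts. For cells labelled as SSCs, 10 listed germ cell markers summed to 152 reads in shLSD1 and 153 in Blank (log2 ratio 0.07, interval -0.26 to 0.41), with NANOG at 0 in both. NANOS3 held 115 of these reads in shLSD1 and 92 in Blank (12.9 FPKM in shLSD1 and 9.75 in Blank), and the other 9 markers summed to 37 reads in shLSD1 and 61 in Blank (log2 ratio -0.63, interval -1.27 to -0.03). In bulk RNA of this kind, fewer cells of a type and less RNA per cell cannot be told apart.

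LHCGR (ENSGALG00000009095), the receptor through which luteinizing hormone acts, lies at 7505304 to 7524818 on chromosome 3 (plus strand). Positions are those of the deposited tables, and their genome build is not named in the sources used here. It had 27 reads in shLSD1 and 23 reads in Blank. Its deposited FPKM, which relates reads to gene length and to library size, was 1.39 in shLSD1 (95% exact Poisson interval 0.916 to 2.02) and 1.12 in Blank (0.708 to 1.68). The receptor was thus detected in both libraries at a low level, and the intervals overlap over most of their width. The log2 ratio of shLSD1 to Blank, taken over the library totals with a prior count of 0.5, was 0.31 with an exact Clopper-Pearson 95% interval of -0.54 to 1.18. The interval holds 0, so the libraries are not separated for this gene.

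NR5A1 (ENSGALG00000001080), the nuclear receptor that switches on the steroidogenic genes, is listed at 9429011 to 9444852 on chromosome 17 (minus strand). It is listed at 0 reads in shLSD1 and 0 reads in Blank. A count of 0 allows up to 3 reads, which is an FPKM of 0.111 in shLSD1 and 0.105 in Blank. That limit holds only if no reads of NR5A1 were counted on another model, so it is no upper bound on its expression here. The whole of its span (100%) is covered by an assembled model on the same strand that runs from 9429011 to 9501944, carries the ligand-binding and zinc finger domains of a nuclear receptor, and held 427 reads in shLSD1 and 521 reads in Blank. That model had an FPKM of 2.83 in shLSD1 and 3.25 in Blank and a log2 ratio of -0.20 (exact 95% interval -0.39 to -0.02), which with upper-quartile scaling became -0.18 (-0.37 to 0.01) and was no longer separated from 0. It also covers the whole of NR6A1, a nuclear receptor known for its part in germ cells, which is listed at 0 reads in both libraries too. Reads of NR5A1 and NR6A1 therefore cannot be told apart here, and the lower count of the model in shLSD1 cannot be assigned to either gene.

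STAR (ENSGALG00000003242), the protein that brings cholesterol to the inner mitochondrial membrane, lies at 2263879 to 2266815 on chromosome 22 (minus strand). It had 29 reads in shLSD1 and 45 reads in Blank. Its FPKM was 2.0 in shLSD1 (1.34 to 2.87) and 2.93 in Blank (2.13 to 3.92). STAR had fewer reads in shLSD1, but the log2 ratio of -0.54 has an interval of -1.28 to 0.15 that holds 0, so the libraries are not separated. The last 48 bases of STAR overlap ASH2L, a subunit of histone methyltransferase complexes, on the opposite strand. ASH2L had 972 reads in shLSD1 and 1122 in Blank, and whether strand was used in the counting is not given in the sources used here, so some reads at that end may belong to either gene.

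CYP11A1 (ENSGALG00000001417), the side-chain cleavage enzyme that makes pregnenolone, lies at 2056283 to 2064888 on chromosome 10 (plus strand). It had 107 reads in shLSD1 and 96 reads in Blank. Its FPKM was 3.41 in shLSD1 (2.80 to 4.12) and 2.89 in Blank (2.34 to 3.52). The log2 ratio was 0.24 with an interval of -0.17 to 0.65, so this first enzyme of the pathway was not separated between the libraries either. CCDC33 overlaps 53.2% of its span on the opposite strand, with 0 reads in shLSD1 and 2 in Blank, so few reads there were assigned to the partner. Whether reads in the shared stretch were left out of both genes is not given in the sources used here. The level of CYP11A1 may therefore be too low, here and in the comparisons of levels below.

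HSD3B2 (ENSGALG00000014764), the name the files give to a 3-beta-hydroxysteroid dehydrogenase gene, lies at 77954029 to 77969647 on chromosome 1 (minus strand). It had 1 read in shLSD1 and 4 reads in Blank, with an FPKM of 0.0433 in shLSD1 and 0.163 in Blank. The log2 ratio of -1.52 has an interval of -7.54 to 1.42, and the gene stays under the minimum of 20 reads over both libraries that was set for a call. An assembled model on the same strand, from 77954025 to 77964565, covers 67.5% of the gene and carries a 3-beta hydroxysteroid dehydrogenase family domain. The model had 46 reads in shLSD1 and 40 reads in Blank, with an FPKM of 1.86 in shLSD1 and 1.53 in Blank. Its log2 ratio was 0.28 (-0.36 to 0.93), and that of gene and model together was 0.18 (-0.45 to 0.80). Most reads at this place were thus assigned to the model and not to the named gene, and neither was separated between the libraries. Which of the models the reads belong to cannot be told apart from the tables.

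**Figure D1:**
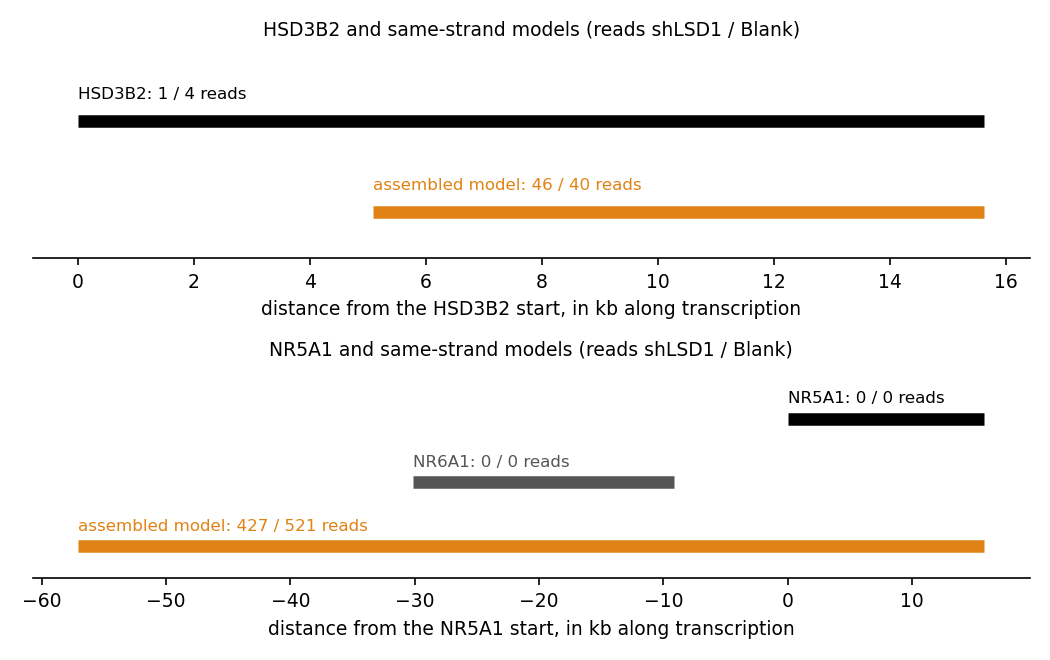
Gene models at HSD3B2 (top) and NR5A1 (bottom), drawn to scale as distance in kb from the start of each gene along the direction of transcription; numbers beside each bar are reads in shLSD1 / Blank. The named genes (black) and NR6A1 (grey) hold 0 to 4 reads, and the assembled models on the same strand (orange) hold 46 / 40 reads over HSD3B2 and 427 / 521 reads over NR5A1.

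CYP17A1 (ENSGALG00000008121), which carries out both the 17-alpha-hydroxylase and the 17,20-lyase steps on the way to androgens, lies at 22924906 to 22927383 on chromosome 6 (minus strand). No other listed model overlaps it on either strand. It had 380 reads in shLSD1 and 551 reads in Blank, which, scaled to library size (CPM), is 46.1 CPM in shLSD1 and 63.1 CPM in Blank. Its FPKM was 27.9 in shLSD1 (25.2 to 30.9) and 38.1 in Blank (35.0 to 41.5), and these intervals do not overlap. The log2 ratio was -0.45 with an interval of -0.65 to -0.26, so the shLSD1 library held 0.731 times the Blank level. By the rule used throughout (at least 20 reads over both libraries and an interval that excludes 0), CYP17A1 was lower in shLSD1. STAR, CYP11A1 and LHCGR were not separated, which does not show that they were unchanged. HSD3B2, NR5A1 and CYP19A1 had too few reads for a call. Like CYP17A1, LHCGR and CYP19A1 share no bases with another model.

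CYP19A1 (ENSGALG00000013294), the aromatase, lies at 8712476 to 8726241 on chromosome 10 (minus strand). It had 0 reads in shLSD1 and 0 reads in Blank, and no model covers it on either strand. The 3 reads that a count of 0 allows correspond to an FPKM of 0.224 in shLSD1 and 0.211 in Blank. Unlike NR5A1, it does not lie under a model that holds reads, and aromatase was not detected at this depth.

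**Figure D2:**
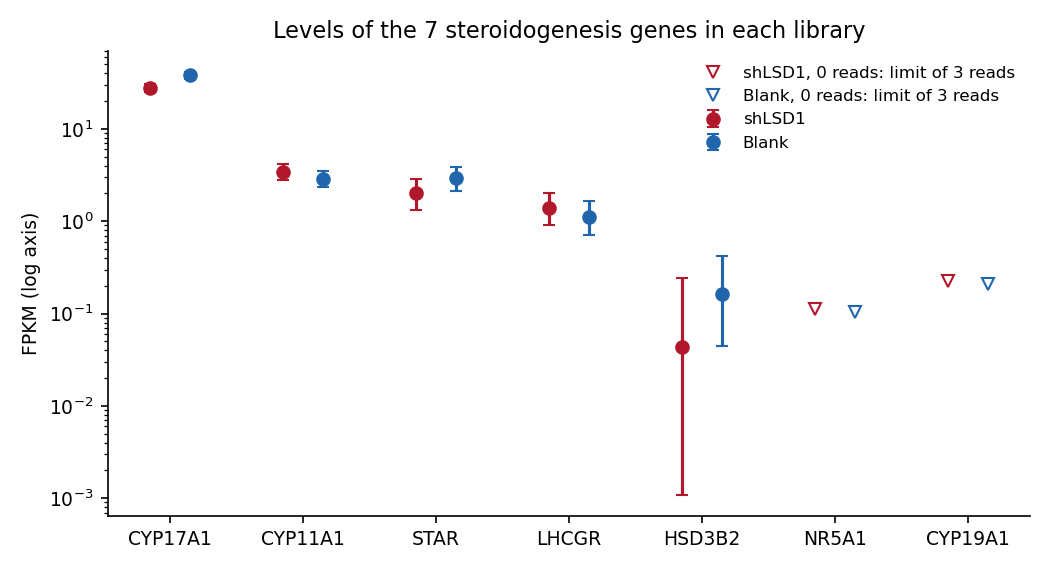
FPKM on a log axis for each of the 7 genes in the shLSD1 library (red, left of each pair) and the Blank library (blue, right of each pair). Bars are exact Poisson 95% intervals of the reads, and open triangles mark the limit of 3 reads for genes at 0. For NR5A1 this limit does not bound its expression, since an assembled model on its strand covers it and holds reads. CYP17A1 stands apart at 27.9 FPKM in shLSD1 and 38.1 in Blank, and its intervals are the only ones in the plot that do not overlap between the libraries.

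The order of the levels was compared per length within each library, for the named genes with a read. NR5A1 and CYP19A1 had none and were left out. The place of NR5A1 is not known, because the assembled model over it held reads. In shLSD1 the order was CYP17A1, CYP11A1, STAR, LHCGR and HSD3B2, and in Blank it was CYP17A1, STAR, CYP11A1, LHCGR and HSD3B2. In shLSD1 CYP17A1 was 8.18 times as high as its neighbour CYP11A1 (exact 95% interval 6.58 to 10.2). In Blank it was 13.0 times as high as its neighbour STAR (9.61 to 18.1). CYP11A1 was 1.71 times STAR in shLSD1 (1.12 to 2.67), whereas STAR and CYP11A1 were not separated in Blank, at a ratio of 1.01 (0.695 to 1.46). STAR and LHCGR were not separated in shLSD1, where STAR was 1.44 times LHCGR (0.822 to 2.53). HSD3B2 was the lowest with a read in both libraries, with LHCGR 32.1 times as high in shLSD1 (5.30 to 1315) and 6.84 times as high in Blank (2.34 to 27.2), counting the reads of the named gene without the assembled model over it. Among all genes with at least 1 read, the FPKM of CYP17A1 was higher than that of 86.7% of genes in shLSD1 and 89.2% in Blank, and STAR, CYP11A1 and LHCGR lay between 40.9% and 57.1% in shLSD1 and between 37.4% and 53.7% in Blank.

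The ratio of CYP17A1 to CYP11A1 reads differed between the libraries. There were 3.55 CYP17A1 reads for each CYP11A1 read in shLSD1, against 5.74 in Blank, a log2 difference of -0.69 with an exact interval of -1.15 to -0.24. This was the only one of the 6 pairs among STAR, CYP11A1, CYP17A1 and LHCGR whose interval excluded 0, and the intervals were not adjusted over the pairs. A ratio of this kind does not depend on the library totals, but it does not say which of the genes moved. Between CYP11A1 and STAR there were 3.69 reads to 1 in shLSD1 and 2.13 to 1 in Blank, a log2 difference of 0.79 (-0.04 to 1.63). The remaining 4 pairs lay between -0.86 and 0.10, each with an interval that holds 0.

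**Figure D3:**
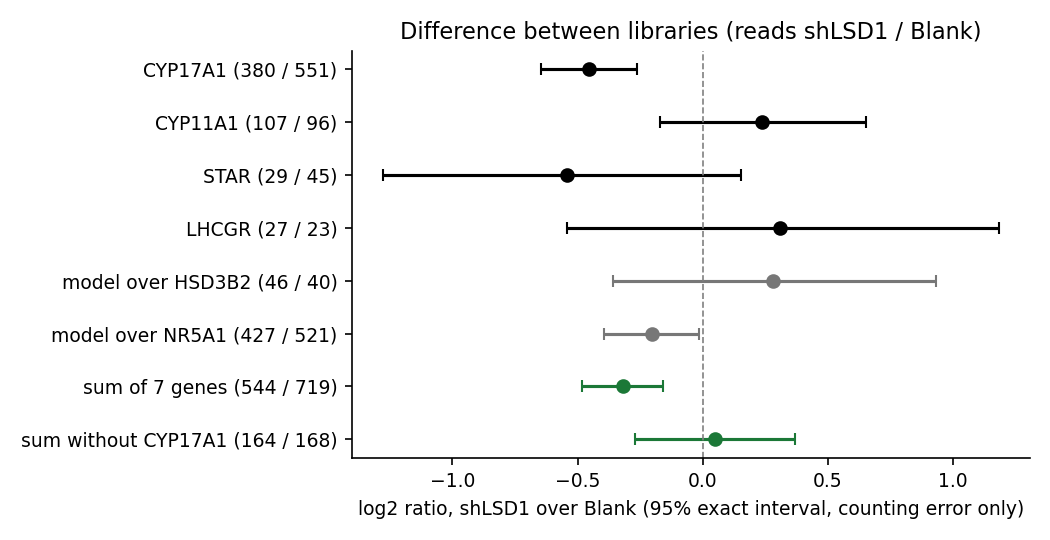
Log2 ratio of shLSD1 to Blank (points) with exact 95% intervals (bars) for the 4 genes with at least 20 reads (black), the assembled models over HSD3B2 and NR5A1 (grey), and sums over the genes (green); reads in shLSD1 / Blank stand beside each name. The intervals of CYP17A1, of the model over NR5A1 and of the sum of 7 genes lie below 0, and the sum without CYP17A1 lies at 0.05.

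Summed over the 7 genes there were 544 reads in shLSD1 and 719 reads in Blank, or 66.0 CPM in shLSD1 and 82.3 CPM in Blank, a log2 ratio of -0.32 (-0.48 to -0.16). CYP17A1 alone supplied 69.9% of this sum in shLSD1 and 76.6% in Blank. Without it, the other 6 genes summed to 164 reads in shLSD1 and 168 in Blank, a log2 ratio of 0.05 (-0.27 to 0.37). With the 2 assembled models added to the 7 genes, the sum was 1017 reads in shLSD1 and 1280 in Blank, a log2 ratio of -0.25 (-0.37 to -0.13). The sum over the named genes thus followed CYP17A1 and is no measure of the pathway as a whole.

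The difference in CYP17A1 was read against all genes. Of the 12081 genes that reached 20 reads in all, 15.4% had an interval below 0, 12.9% an interval above 0 and 28.3% either of these, so 1 lower gene among the 4 members over the minimum is a count of the size the background gives. Intervals are narrower where reads are many: among the 4552 genes with at least 500 reads, to which CYP17A1 belongs, 26.4% had an interval below 0 and 19.7% one above 0. In that better-covered group 2.64% of genes had a log2 ratio as low as CYP17A1 or lower, and 4.88% were as far from 0 in either direction. Over all 12081 genes, 20.6% were farther from 0 than CYP17A1, 15.3% than STAR, 34.2% than LHCGR and 43.8% than CYP11A1. None of the 4 reached a 2-fold difference, which 2.20% of the 12081 genes did upwards and 1.82% downwards. The median log2 ratio of the 4 was -0.11, beside -0.01 over the 12081 genes.

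**Figure D4:**
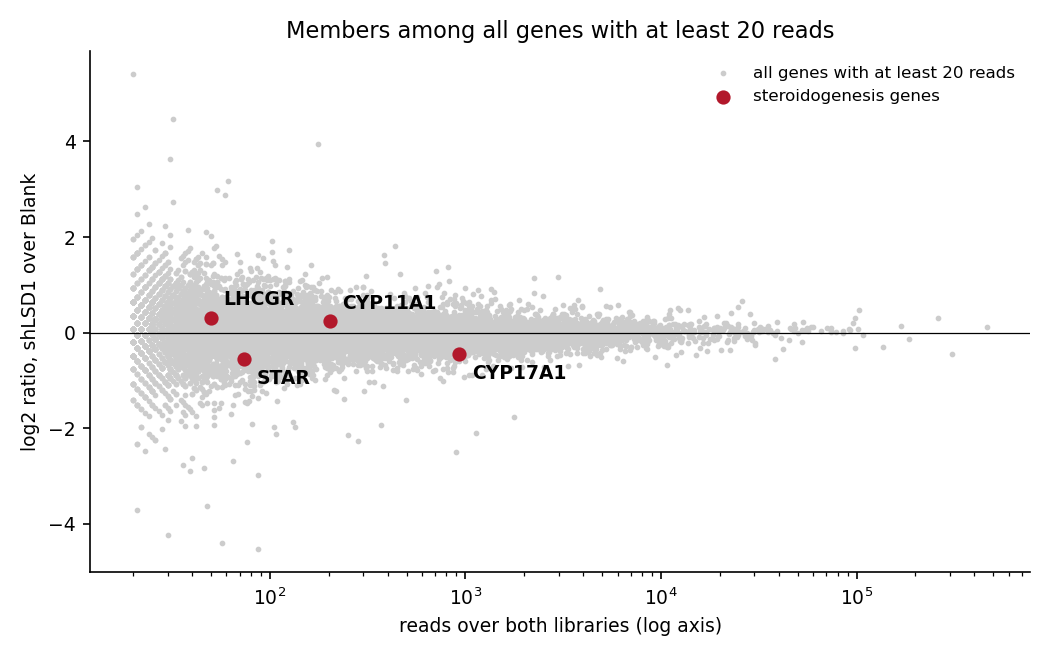
Log2 ratio of shLSD1 to Blank against the reads over both libraries (log axis) for the 12081 genes and gene models of 20 or more reads (grey), with STAR, CYP11A1, CYP17A1 and LHCGR in red. CYP17A1 lies below most genes with at least 500 reads, of which 2.64% had a log2 ratio as low or lower. That group has no upper limit of reads and is not matched to CYP17A1 in depth. The other 3 lie within the cloud of genes.

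The genes most like the members over the 2 libraries were found by the distance between their log2(FPKM + 0.1) values. For each member the search ran over 4320 other named genes with at least 20 reads and no other model overlapping on their strand. The nearest to CYP17A1 was UBE2C, a ubiquitin-conjugating enzyme of mitosis, with an FPKM of 27.9 in shLSD1 and 38.6 in Blank from 115 reads in shLSD1 and 169 in Blank. The nearest to STAR was DYNC1I1, a dynein intermediate chain, at 1.97 FPKM in shLSD1 and 2.96 in Blank. MYO1F lay nearest to CYP11A1, at 3.41 FPKM in shLSD1 and 2.87 in Blank, and IGSF1 nearest to LHCGR, at 1.36 in shLSD1 and 1.09 in Blank. A similar log2 ratio alone, whatever the level, is common: 7.47% of all genes tested lay within 0.1 of CYP17A1 and 15.4% within 0.1 of CYP11A1. How common likeness in both level and ratio is was not counted.

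Other enzymes of steroid metabolism differed in both directions and by small amounts. Of 20 other steroid enzymes and electron donors listed, 13 names were found as further genes and 8 had at least 20 reads, of which 2 were higher, 2 were lower and 4 were not separated. Over all genes tested 12.9% were higher and 15.4% lower, and from 500 reads, which all 4 of the separated genes reach, 19.7% were higher and 26.4% lower. AKR1D1, the steroid 5-beta-reductase, was higher, with 1505 reads in shLSD1 and 1382 in Blank (log2 ratio 0.21, interval 0.10 to 0.31). SRD5A3, named as a steroid 5-alpha-reductase but best known for its part in protein glycosylation, was higher with 267 reads in shLSD1 and 235 in Blank (0.27, 0.00838 to 0.53), and overlaps another model on its strand. With DESeq2's size factors the interval of SRD5A3 held 0 (0.25, -0.00402 to 0.51). HSD17B4, known chiefly for peroxisomal fatty acid oxidation, was lower with 2971 reads in shLSD1 and 3471 in Blank (-0.14, -0.21 to -0.07). HSD17B12, which acts in the elongation of long-chain fatty acids, was lower with 1318 reads in shLSD1 and 1544 in Blank (-0.15, -0.25 to -0.04), and it too overlaps another model on its strand. The highest was CYB5A, the cytochrome b5 that aids the lyase step of CYP17A1, at 204 FPKM in shLSD1 and 213 in Blank with a log2 ratio of -0.06 (-0.14 to 0.01). The median log2 ratio of these 8 genes was -0.05, beside -0.01 over all genes tested.

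Genes that supply cholesterol to the pathway could hardly be read. Of 15 listed, 12 names were found and only 3 had at least 20 reads, of which 1 was higher, 1 lower and 1 not separated. Over all genes tested 12.9% were higher and 15.4% lower. From 500 reads, which all 3 reach, 19.7% were higher and 26.4% lower. NPC2, which binds cholesterol in lysosomes, was higher and the most abundant, with 2215 reads in shLSD1 and 2207 in Blank (0.09, 0.00208 to 0.17), or 218 FPKM in shLSD1 and 205 in Blank. With DESeq2's size factors its interval held 0 (0.08, -0.01 to 0.16). NPC1, which exports that cholesterol from lysosomes, was lower, with 1333 reads in shLSD1 and 1613 in Blank (-0.19, -0.30 to -0.09). The median log2 ratio of the 3 was -0.03. Another 7, TSPO, DBI, STARD3, STARD4, STARD5, SCARB1 and SOAT1, are listed at 0 in both libraries, and each of the 7 overlaps another listed model on its strand, as NR5A1 does.

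A count of 0 was common among genes that an assembled model covers almost whole. Of 6128 protein-coding genes with at least 90% of their span covered by an assembled model on the same strand, 66.8% had 0 reads in both libraries, against 14.2% of the 8665 that no such model covers. NR5A1 is one of the covered genes at 0, while CYP19A1 is one of the uncovered genes at 0.

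Among transcription factors of steroidogenic and gonadal somatic cells, 15 of 16 names were found and 10 had at least 20 reads, of which 2 were higher, 3 lower and 5 not separated, beside 28.3% separated either way over all genes tested. From 500 reads, which all 5 of the separated genes reach, 19.7% of all genes were higher and 26.4% lower. NR5A2, the close relative of NR5A1 that binds the same DNA element, was lower, with 313 reads in shLSD1 and 457 in Blank (-0.46, -0.68 to -0.25), or 8.99 FPKM in shLSD1 and 12.4 in Blank. CITED2, a transcriptional coregulator of gonad and adrenal development, was lower with 1323 reads in shLSD1 and 1600 in Blank (-0.19, -0.30 to -0.09). CEBPB, a bZIP factor, had the highest level of the list at 1558 FPKM in shLSD1 and 1638 in Blank, and it was slightly lower (-0.08, -0.11 to -0.04). GATA6 was higher, with 282 reads in shLSD1 and 220 in Blank (0.44, 0.18 to 0.70), and so was TCF21, a factor of gonadal stromal cells, with 543 reads in shLSD1 and 447 in Blank (0.36, 0.18 to 0.55). The median log2 ratio of the 10 was 0.06.

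Downstream of LHCGR, 12 of 17 listed genes of cAMP signalling were found and 4 had at least 20 reads. ADCY3, an adenylyl cyclase, was the only one separated, and it was higher with 155 reads in shLSD1 and 99 in Blank (0.73, 0.36 to 1.11). Over all genes tested 12.9% were higher and 28.3% were separated either way. AKAP1, which anchors protein kinase A at mitochondria, was the most abundant at 42.9 FPKM in shLSD1 and 44.8 in Blank (-0.06, -0.17 to 0.04). The 5 genes of this list at 0, which include 3 regulatory subunits of protein kinase A, all overlap another model on their strand. All 6 steroid hormone receptors listed were found, and 4 had at least 20 reads. Of these only NR3C1, the glucocorticoid receptor, was separated, with 509 reads in shLSD1 and 439 in Blank (0.30, 0.11 to 0.48). It was higher, as were 12.9% of all genes tested and 19.7% of those with at least 500 reads, which NR3C1 reaches. PGR, the progesterone receptor, was the most abundant at 30.9 FPKM in shLSD1 and 32.3 in Blank (-0.06, -0.27 to 0.14). The median log2 ratio was 0.27 over the 4 cAMP genes and 0.16 over the 4 receptors.

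**Figure D5:**
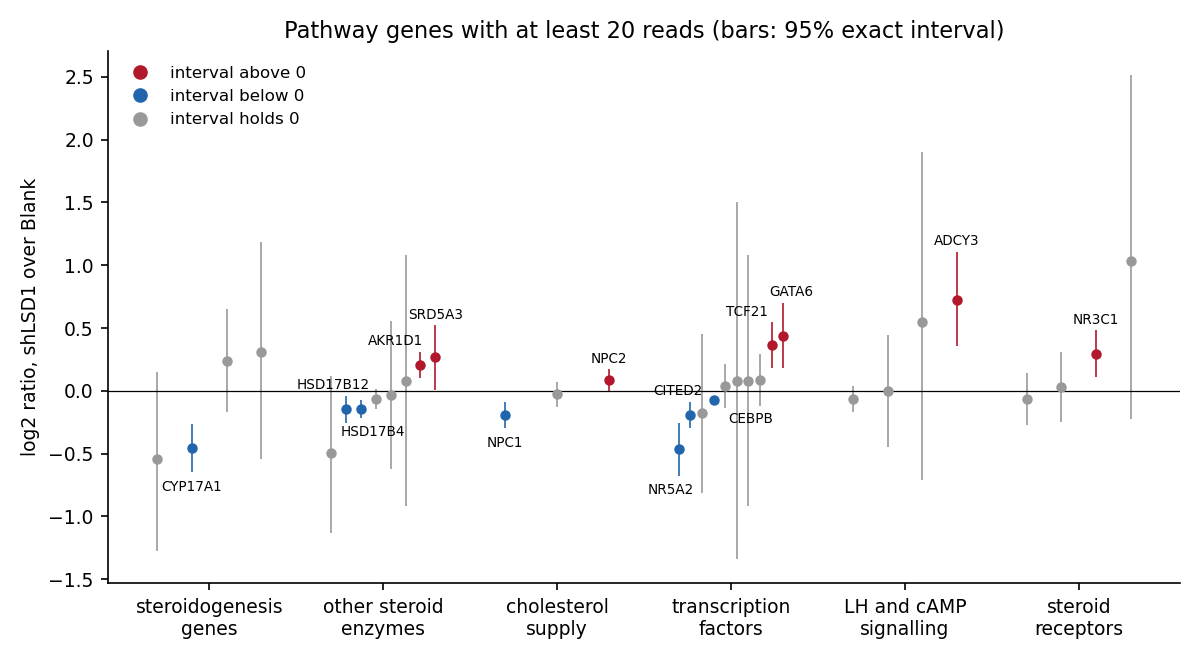
Log2 ratio of shLSD1 to Blank (points) with exact 95% intervals (bars) for every gene with at least 20 reads among the steroidogenesis genes and the 5 lists of related genes, sorted by ratio within each list. Genes whose interval lies above 0 (red) or below 0 (blue) are named. Both directions occur among the enzymes, cholesterol genes and transcription factors, and CYP17A1 and NR5A2 are the lowest named points at -0.45 and -0.46.

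The name Leydig rests on little in these libraries beyond the members themselves. Of 6 further Leydig lineage markers, 3 names were found, PDGFRA, NR2F2 and PTCH1, and all 3 are listed at 0 reads in both libraries, each overlapped by another model on its strand. Of 6 adrenal cortex names, 2 were found as separate genes. MC2R, the ACTH receptor, had 1 read in shLSD1 and 2 in Blank and overlaps no other model on its strand. CYP21A2, the 21-hydroxylase, is listed at 0 in both libraries and overlaps another model on its strand. So the defining markers do not tell a Leydig from an adrenal source of the CYP17A1 reads, and the members are described here by their names only. Adrenal chromaffin markers summed to 14 reads in shLSD1 and 21 in Blank over 3 genes. CHGA alone held 12 of these reads in shLSD1 and 19 in Blank. DBH had 2 reads in each library, and PNMT is listed at 0 in both and overlaps another model on its strand.

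Beside the lower CYP17A1 in shLSD1, some markers of other testis cells differed between the same libraries and others did not. Sertoli markers summed to 2210 reads in shLSD1 and 1879 in Blank (log2 ratio of the sum 0.32, interval 0.23 to 0.41). Of the 5 genes over the minimum, 2 were higher and none lower. Over all genes tested 12.9% were higher and 15.4% lower, and from 500 reads 19.7% were higher and 26.4% lower. AMH and WT1 are listed at 0, and each overlaps another model on its strand. CLDN11 supplied 69.9% of the Sertoli sum in shLSD1 and 66.8% in Blank, and without it the sum was 666 reads in shLSD1 and 624 in Blank (0.18, 0.02 to 0.34). Peritubular and fibroblast markers summed to 5437 reads in shLSD1 and 6703 in Blank (-0.22, -0.27 to -0.17), with 1 of the 2 genes over the minimum higher (DES) and 1 lower (LUM). DCN is listed at 0 and overlaps another model on its strand, as do MYH11 and TAGLN. This sum followed LUM, and the other 4 genes summed to 727 reads in shLSD1 and 605 in Blank (0.35, 0.19 to 0.51). DES alone held 726 of those reads in shLSD1 and 601 in Blank, so that ratio is the ratio of DES. Endothelial markers summed to 84 reads in shLSD1 and 119 in Blank (-0.42, -0.84 to -0.00487), with neither of the 2 genes over the minimum separated and CDH5 at 0. Upper-quartile scaling shifted the median log2 ratio over all genes by 0.026, more than the distance of that upper bound from 0. Whether the endothelial sum is separated thus depends on the scaling. Macrophage markers summed to 454 reads in shLSD1 and 502 in Blank (-0.06, -0.25 to 0.12). Ovarian somatic markers summed to 623 reads in shLSD1 and 716 in Blank (-0.12, -0.28 to 0.04), with RSPO1 at 0, and 1 of the 3 genes over the minimum was lower, FST, with 204 reads in shLSD1 and 270 in Blank (-0.32, -0.59 to -0.05). Without WNT4, the ovarian gene with most reads, the sum was 245 reads in shLSD1 and 319 in Blank (-0.30, -0.54 to -0.05). Erythroid markers summed to 10 reads in shLSD1 and 12 in Blank, with HBAA and HBE1 at 0. The part of a different cell mixture in the CYP17A1 difference was not tested.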

How the data were processed

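RNA-seq libraries were prepared by the submitters from 1 µg of total RNA with an Illumina TruSeq kit. Per the labels, processing used Bowtie 0.12.2 and the builds mm8 and mm9, which are mouse builds; the build of the chicken coordinates and the counting tool are not given in the sources used here. A count of reads for each of 26656 genes and models, whole numbers with no normalization, was deposited by the authors, who had assembled 9548 of the models. They also deposited FPKM, the counts divided by gene length and by a library total that exceeds the listed counts by 0.461% (shLSD1) and 0.646% (Blank). In each table, 2 columns of values, headed Control and MLL2_sh, carry names that fit no sample and were left out; what cells the Control column holds is not given in the sources used here. The authors' comparison table (adjusted counts, log2 fold changes and p-values) was not used.

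Counts were divided by the listed totals, and log2 ratios were taken with a prior count of 0.5, scaled to library size. Intervals are 95% Clopper-Pearson (ratios) or Poisson (levels), taken from the reads of 1 library per group, and cover counting error only. PCR copies counted as reads would make them too narrow. A gene was called higher or lower with at least 20 reads over both libraries and an interval excluding 0. No test across genes was run, since each group has 1 library. Of 137 list symbols, 111 were found by gene name or by an older symbol in a RefSeq table of assembly GRCg7b, used for names only. From each list of related genes, those separated between the libraries (up to 5) and the one with the highest FPKM are named; NR6A1, ASH2L and CCDC33 are named as overlapping genes, and other genes at 0 or in marker lists after their values were seen. The members and lists were chosen with earlier results of these data known. The calculations were tested on simulated data. Calculations ran in Python 3.11.15 (with pandas 2.3.3, scipy 1.17.1, numpy 2.4.6 and, for plots, matplotlib 3.10.9). DESeq2 1.42.0 and edgeR 4.0.16, in R 4.3.3, served only for alternative scalings.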

Additional observations from a re-analysis of the deposited data

How the results depend on the processing

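No paired analysis was possible because shLSD1 and Blank have 1 library each. Ratios were recomputed with a prior count of 5, with FPKM and a pseudocount of 0.1 or 1, and with 4 other scalings: upper quartile, TMM (edgeR), size factors (DESeq2) and a total that leaves out the top 20 genes. Over these 7, the log2 ratio of CYP17A1 ran from -0.47 to -0.43, STAR from -0.56 to -0.39, CYP11A1 from 0.18 to 0.26 and LHCGR from 0.18 to 0.33, each with its sign kept. Under the 4 scalings the median log2 ratio over all genes shifted by -0.01 to 0.03. The summed log2 ratio became 0.0476 without CYP17A1. With FPKM put on the TPM scale, levels in shLSD1 and Blank were 45.6 and 63.4 for CYP17A1, 5.57 and 4.79 for CYP11A1, 3.27 and 4.86 for STAR, and 2.27 and 1.85 for LHCGR. Genes at least 2-fold higher and lower numbered 2097 and 1862 with no filter, 37 and 27 from 100 reads, 140 and 114 with a prior count of 5, and 48 and 55 with an FPKM pseudocount of 1. A minimum of 500 reads, chosen after seeing the data, left 6 and 4 at least 2-fold higher and lower, and 896 and 1202 with intervals above and below 0. Without the gene with most reads, also chosen after seeing the data, the peritubular sum became 0.347, the Sertoli sum 0.176, the ovarian sum -0.298 and the germ cell sum -0.632. Nearly all reads left in the peritubular sum were those of DES, and the germ cell sum over all 10 markers was 0.07. With DESeq2's size factors, 1 gene was higher among the other steroid enzymes and 0 among the cholesterol genes. HSD3B2 (5 reads in all), NR5A1 and CYP19A1 are limited by depth, and the first 2 also by the models over them.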
